A study of Mus musculus with 2 samples.

Results

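Figla, Nobox, Sohlh1, Sohlh2, Lhx8, Taf4b and Pou5f1 encode transcription regulators that oocytes carry in early follicles. These 7 genes were taken from a list of names, out of 20658 genes that the array probes could be paired with, and every probe carrying a RefSeq accession of a listed gene was used. Each of the 7 genes had 1 such probe at 1 spot. Expression was measured on single-colour oligonucleotide arrays, where the brightness of a spot reports the amount of labelled RNA bound by its probe. The RNA came from portions of mouse ovaries, taken at 2 weeks of age and cultured for 3 days. The agonist group received agonists of the tachykinin receptors (TKRs) TACR1, TACR2 and TACR3, and the antagonist group received antagonists of the same receptors, each ligand at 1 μM. Per the methods the agonists were [Sar9, Met(O2)11]-SP for TACR1, GR-64349 for TACR2 and a succinylated substance P fragment, senktide, for TACR3. The antagonists were GR-94800 for TACR2, SB218795 for TACR3 and an L-series compound for TACR1. Each group had 1 array, both on the same slide. Untreated ovaries were not analysed here, and neither the number of ovaries behind each RNA nor the mouse strain is given in the sources used here.

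In the ovary, germ cells are enclosed by flattened granulosa cells to form primordial follicles, and the oocytes of activated follicles then grow while granulosa cells multiply around them. FIGLA and the SOHLH proteins are basic helix-loop-helix factors, which bind DNA as dimers at E-boxes, and FIGLA is known for its control of the zona pellucida genes. NOBOX and LHX8 are homeodomain factors that early follicles need for growth. POU5F1, also called OCT4, is a POU domain factor of pluripotent cells, germ cells and oocytes, and TAF4B is a subunit of a gonad-rich form of the general factor TFIID.

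Of the 7 genes, 6 were well above background on both arrays by the mark of the image analysis software, and Taf4b was so on the agonist array only. Over the whole array, 15258 of the 20658 genes and 59.4% of probes passed that mark on both arrays. A count of 6 of 7 therefore does not by itself set these genes apart, and counts in the lists below have the same background. Figla was 1.51-fold and Sohlh1 1.42-fold higher with the agonists, and in both genes the difference exceeded the error of the spots. Nobox, Lhx8, Pou5f1 and Sohlh2 lay within that error of no difference, with folds of 1.14, 1.07, 1.03 and 0.932. Of all probes that passed the mark on both arrays, 6.82% had a ratio at least that of Figla and 8.44% at least that of Sohlh1. Over those probes the SD of the log2 ratio was 0.43, against spot errors of 0.20 for Figla and Sohlh1. Passing the error of the spots therefore does not by itself set a gene apart. None of the 6 genes (0) reached 2-fold in either direction. Of the 33073 probes that passed the mark on both arrays, 2.69% reached 2-fold or more toward the agonists and 0.705% toward the antagonists, so a count of 0 among 6 genes does not set them apart. With 1 array per group no test was possible, and the errors given here are those of the spot and do not cover the spread between ovaries. In whole ovary pieces, fewer cells of a type and less RNA per cell cannot be told apart.

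The promoters of the 3 helix-loop-helix genes and of Zp3, a zona gene that FIGLA is known to regulate, are shown because the E-box, the letters CANNTG, is the element this protein family binds. The sequences come from RefSeq on build GRCm38.p6, run 5′ to 3′ on the strand of the gene, and hold the 250 bases before the start of the transcript. Capitals mark each E-box. The Figla stretch is chr6:86016941-86017190 on the plus strand, that of Sohlh1 is chr2:25847249-25847498 on the minus strand, that of Sohlh2 is chr3:55181794-55182043 on the plus strand, and that of Zp3 is chr5:135979855-135980104 on the plus strand.
Figla: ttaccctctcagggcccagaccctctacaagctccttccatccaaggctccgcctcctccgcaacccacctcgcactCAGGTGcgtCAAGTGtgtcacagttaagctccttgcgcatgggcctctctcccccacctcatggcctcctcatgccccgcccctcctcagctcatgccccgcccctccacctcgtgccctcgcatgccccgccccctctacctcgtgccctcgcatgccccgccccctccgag
Sohlh1: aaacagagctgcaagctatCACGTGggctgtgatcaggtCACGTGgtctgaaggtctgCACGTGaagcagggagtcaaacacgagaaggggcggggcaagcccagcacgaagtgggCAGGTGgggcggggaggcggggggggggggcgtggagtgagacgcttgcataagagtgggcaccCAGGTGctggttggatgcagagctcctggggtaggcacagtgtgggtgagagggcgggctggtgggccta
Sohlh2: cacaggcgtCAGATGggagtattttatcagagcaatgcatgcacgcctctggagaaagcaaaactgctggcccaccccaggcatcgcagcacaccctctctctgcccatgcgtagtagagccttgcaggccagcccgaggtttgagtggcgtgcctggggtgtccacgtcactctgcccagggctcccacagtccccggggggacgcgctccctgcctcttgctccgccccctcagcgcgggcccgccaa
Zp3: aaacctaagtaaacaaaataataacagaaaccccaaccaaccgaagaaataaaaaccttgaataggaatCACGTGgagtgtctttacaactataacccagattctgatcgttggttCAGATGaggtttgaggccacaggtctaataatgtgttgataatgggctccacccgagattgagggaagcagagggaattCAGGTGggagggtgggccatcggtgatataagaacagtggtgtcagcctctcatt
Before its start Sohlh1 had 5 E-boxes, of which 3 read CACGTG and 2 read CAGGTG. Figla had 2 there and 2 more within the 50 bases from the start on, Sohlh2 had 1, and Zp3 had 3 with 1 more from the start on. Windows of 300 bases, 250 before and 50 from the start on, were available for 6 of the 7 genes. Over all 32851 such windows, 72.3% held at least 1 E-box, 6.49% at least 4 and 2.10% at least 5. Nobox (window chr6:43309505-43309804, minus strand) had 2 E-boxes, Lhx8 (chr3:154330511-154330810, minus strand) had 0, and the 2 annotated starts of Pou5f1 (chr17:35505782-35506081 and chr17:35508557-35508856, plus strand) had 1 and 2. Zp3 had 4 in its full window, which 6.49% of windows reach. Because CANNTG reads as CANNTG on the opposite strand too, each site was counted once. Such matches are letters in a window and were not shown to be bound.

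**Figure D1:**
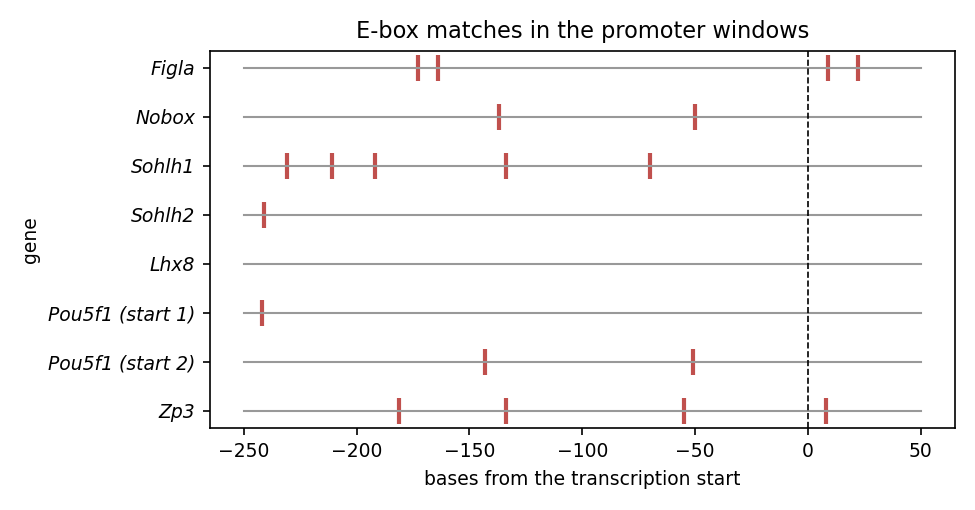
E-box (CANNTG) matches, drawn as vertical ticks, along the 300-base window around each transcription start, with the start as a dashed line and the horizontal axis in bases from it. Each line is 1 window of a gene, Pou5f1 having 2 starts, with Zp3 added as a target and no window for Taf4b. Sohlh1 has 5 ticks and Figla 4, while Lhx8 has 0.

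The letters TAATTG, a sequence bound by NOBOX, and ATGCAAAT, the octamer bound by POU factors, were also searched on both strands. TAATTG stood in 2628 of the 32851 windows and in 0 of the 7 windows of the 6 genes. ATGCAAAT stood in 1.74% of all windows and in 0 of those 7. No E-box of these windows could therefore overlap them. The absence of these letters says nothing about the factors.

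The agonist array had 65.4% and the antagonist array 61.6% of its 59305 non-control spots past the background mark, and 0 spots were saturated. To put the arrays on a common scale, the 75th percentile of each (672 signal units with the agonists, 569 with the antagonists) was subtracted on the log2 scale. Log2 ratios are given as agonists minus antagonists. Over all probes that passed on both arrays they had a median of -0.10 and an SD of 0.43. For 284 probes printed at 10 spots each, the median SD of the log2 ratio between spots was 0.07. It is smaller than the software error of about 0.20 on a log2 ratio read at 1 spot. In size, the log2 ratios of Nobox (0.18), Lhx8 (0.10) and Sohlh2 (-0.10) lay within that software error but above that SD. Both measures leave out the spread between ovaries.

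Figla, which drives the early oocyte programme, gave 952 ± 95.3 signal units (software error, 1 spot) with the agonists and 534 ± 53.5 with the antagonists. Its log2 ratio was 0.59 ± 0.20, corresponding to a fold between 1.31 and 1.74 within 1 error. Figla was the brighter on the agonist array before and after scaling. Relative to the median of all probes the log2 ratio was 0.69, and 93.2% of the probes that passed the mark on both arrays had a lower ratio. Figla ranked at percentile 79.2 of the probe signals with the agonists and at percentile 75.5 with the antagonists.

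Sohlh1, the helix-loop-helix factor of premeiotic germ cells and primordial oocytes, gave 1204 ± 120.4 signal units with the agonists and 717 ± 71.8 with the antagonists. The log2 ratio was 0.51 ± 0.20, a fold between 1.23 and 1.64 within 1 error, and 91.6% of probes lay below it. Here too the agonist array was the brighter. Sohlh2, the partner with which SOHLH1 can form dimers, gave 316 ± 31.8 with the agonists and 287 ± 29.0 with the antagonists. Its log2 ratio of -0.10 ± 0.21 stood at percentile 49.3 of all ratios, next to the median of all probes, and turned positive without scaling and with scaling on spike-in controls. Of the 15 pairs among the 6 genes, 2 differed by more than 2 errors. The log2 ratio of Figla exceeded that of Sohlh2 by 0.70 ± 0.29, and that of Sohlh1 exceeded that of Sohlh2 by 0.61 ± 0.29. These were the largest of the 15 differences. Single log2 ratios over all probes had an SD of 0.43, which already exceeds the error of 0.29 on a difference between 2 ratios. How many pairs of other probes lie more than 2 errors apart was not counted. A count of 2 pairs is therefore not read as setting these genes apart from other probes. Figla and Sohlh1 differed from each other by 0.09 ± 0.29, less than the error.

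Nobox, the homeobox gene of newborn and growing oocytes, gave 5729 ± 573 signal units with the agonists and 4269 ± 427 with the antagonists. Its log2 ratio was 0.18 ± 0.20, at percentile 79.3 of all ratios. Lhx8, the LIM homeobox gene, gave 2300.0 ± 230.0 and 1814 ± 181 in the same order, which made a log2 ratio of 0.10 ± 0.20 at percentile 73.3. Pou5f1 gave 542 ± 54.4 with the agonists and 443 ± 44.5 with the antagonists. Its log2 ratio of 0.05 ± 0.20 stood at percentile 68.5 and was -0.01 when the arrays were scaled on their medians. All 3 genes were brighter on the agonist array in signal units, but by less than the error after scaling. By probe signal Nobox ranked at percentiles 92.5 and 91.4 of the agonist and antagonist arrays, Lhx8 at 86.6 and 85.5, and Pou5f1 at 74.2 and 73.8.

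Taf4b was read near the detection limit. It gave 29.3 ± 4.70 signal units with the agonists and 10.2 ± 4.17 with the antagonists, where the error was 40.9% of the signal. On the antagonist array the spot was positive and significant against its local background but not well above it. The dimmest probe that did pass the mark on that array read 19.9, and after scaling the agonist level of Taf4b was 1.25-fold above it. That bound leaves out the error of the spots and holds for this background correction only. The measured values of Taf4b, taken at face value, differed by 1.28 ± 0.63 on the log2 scale. With another background correction (normexp, offset 50) they differed by 0.05, less than the bound. The offset adds 50 signal units, more than either signal of Taf4b, and so shrinks this ratio by construction. The value of 0.05 is thus no independent check of the difference. The size of this difference depends on how a dim spot is processed.

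**Figure D2:**
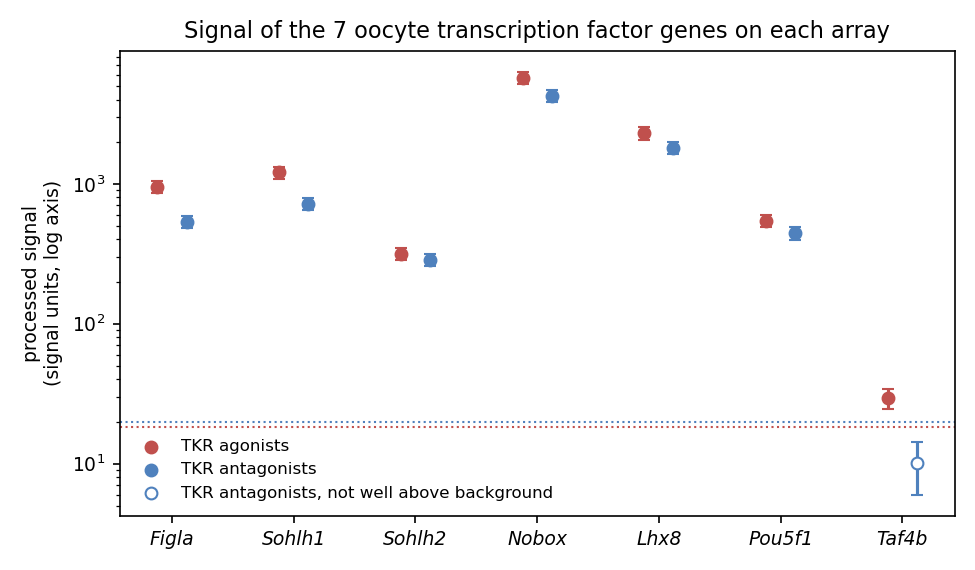
Processed signal of each gene in signal units on a log axis, with red for TKR agonists and blue for TKR antagonists, 1 spot per array, bars showing the software error of the spot and dotted lines the lowest signal well above background on each array. Signals are drawn before scaling, where the intervals overlap for Sohlh2, are separate for Figla, Sohlh1, Nobox and Lhx8 and nearly touch for Pou5f1, and the open symbol of Taf4b at 10.2 lies below the dotted line of its array. Levels of different probes are not comparable as amounts of RNA.

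The median log2 ratio of the 6 genes was 0.14, with 5 genes above 0 and 1 below, against a median of -0.10 over all probes. With this scaling most probes thus lay below 0, which is the background for counts above 0 here and in the lists below. The direction counts depend on the scaling, since 6 genes were above 0 without scaling or on the spike-in controls and 4 with median scaling. The distance from the median of all probes moved less. It was 0.24 with the percentile scaling and between 0.24 and 0.32 over the alternatives. Relative to that median, Figla stayed between 0.58 and 0.69, Sohlh1 between 0.60 and 0.61, Nobox between 0.28 and 0.37, Lhx8 between 0.20 and 0.27, Pou5f1 between 0.12 and 0.15, and Sohlh2 between -0.05 and 0.07. The order Figla, Sohlh1, Nobox, Lhx8, Pou5f1 and Sohlh2 was the same under each scaling tried, while with normexp Sohlh1 came ahead of Figla. Neighbours in that order differed by less than their error except Sohlh1 and Nobox, which were 0.32 ± 0.29 apart.

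**Figure D3:**
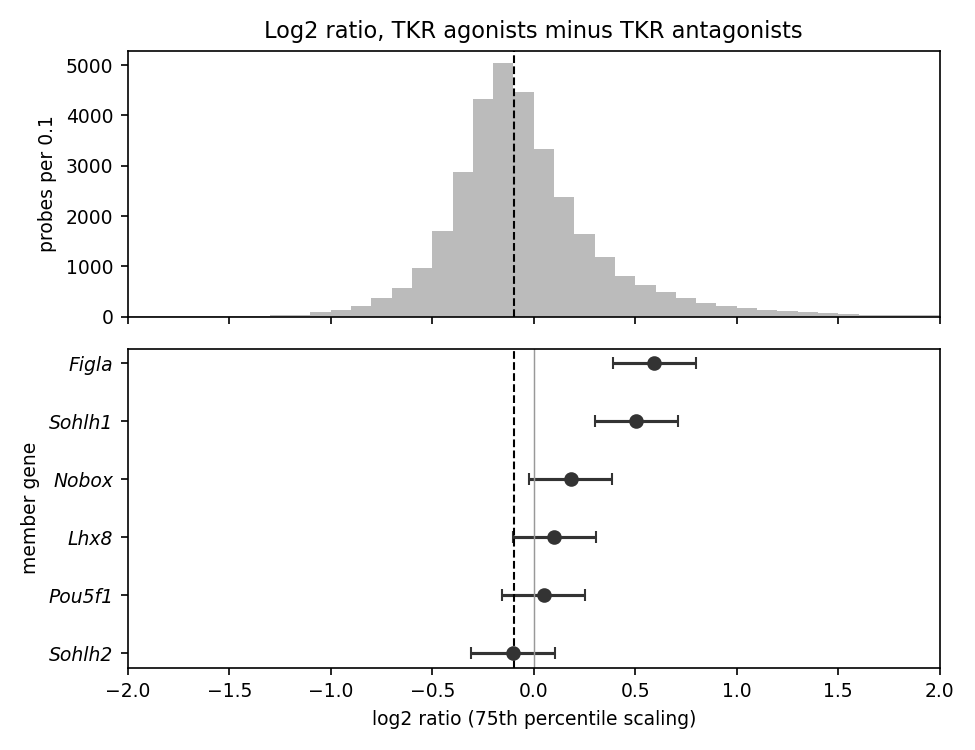
Top, number of probes per 0.1 of log2 ratio for the 33073 probes that passed the background mark on each array, leaving out 18 below -2 and 127 at 2 or above. Bottom, log2 ratio of the 6 genes with the software error as bars. The dashed line is the median of all probes, -0.10, and Figla (0.59), Sohlh1 (0.51) and Nobox (0.18) lie to its right by more than their error, while Sohlh2 (-0.10) lies on it.

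**Figure D4:**
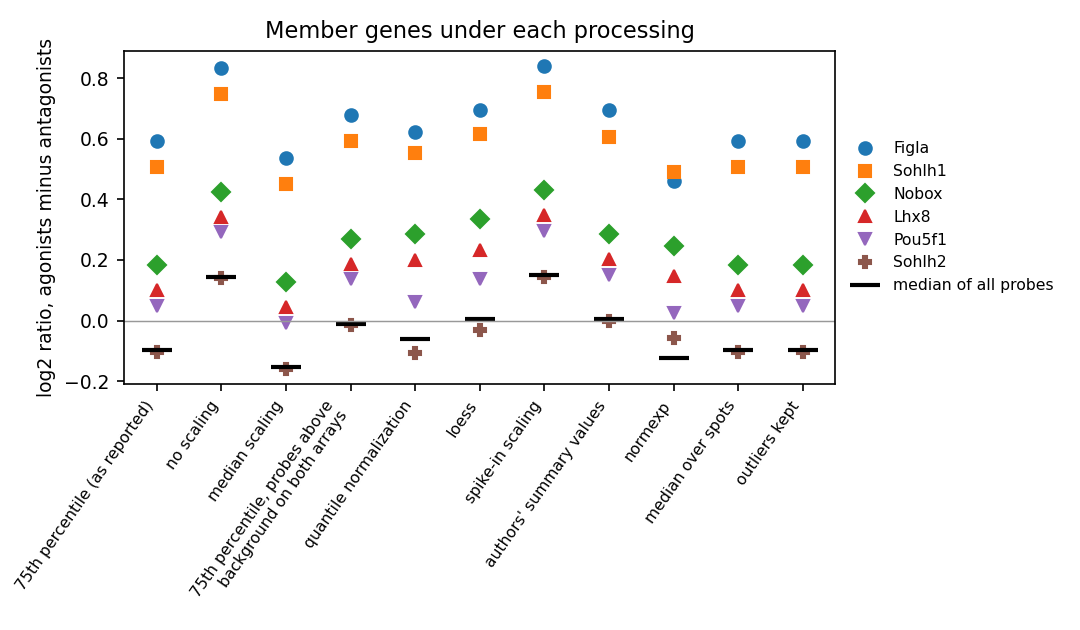
Log2 ratio of each of the 6 genes (symbols) under each processing named on the horizontal axis, with the median of all probes as a dash. Figla and Sohlh1 stay highest under each processing, while Pou5f1 and Sohlh2 change sign with the scaling, Pou5f1 falling to -0.01 with median scaling and Sohlh2 reaching 0.15 on the spike-in controls.

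Of 14 genes listed as targets of these factors, all 14 were well above background on both arrays. Whether the factors act on each of them directly was not tested. Their median log2 ratio was 0.00, with 7 above 0 and 7 below and 0 genes past 2-fold. This split depends on the scaling, since 13 of the 14 lay above the median of all probes and all 14 lay above 0 without scaling. The zona pellucida genes Zp1, Zp2 and Zp3, which encode the glycoproteins of the egg coat, gave -0.02, 0.16 and -0.13. Zp3 read 20115 signal units on the agonist and 18563 on the antagonist array. The oocyte growth factor genes Gdf9 and Bmp15 gave -0.08 and 0.21, and the maternal effect gene Zar1 and the meiotic kinase gene Mos each gave -0.07. Padi6, Nlrp14 and Oosp1, genes of growing oocytes, gave 0.03, 0.32 and 0.07. H1f8, the oocyte linker histone gene, differed by less than 0.01, and Rfpl4 and Fgf8 gave -0.01 and 0.01. The highest was Kit, the receptor gene of KIT ligand, which oocytes and other ovarian cells carry, with a log2 ratio of 0.71 ± 0.14 from signals of 2251 and 1161. The sign turned under at least 1 alternative for Zp1, Zp3, Padi6, Gdf9, Zar1, Mos, H1f8, Rfpl4 and Fgf8.

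The oocytes themselves can be read from 11 oocyte markers, all well above background on both arrays, so oocyte RNA was measured in both groups. Their median log2 ratio was 0.00, with 6 above 0 and 5 below, ranging from Khdc3 (-0.20) to Ooep (0.29). Of the 11 markers, 8 lay above the median of all probes, and all 11 lay above 0 without scaling. Summed over the markers, scaled signals came to 125 on the agonist and 133 on the antagonist array, a ratio set mostly by the bright probes of Tle6, Khdc3, Npm2 and Nlrp5. Such sums, here and for other lists, weight each gene by the brightness of its probe and are not amounts of RNA. Figla and Sohlh1 each had a higher ratio than all 11 of these markers. The distance to the highest of them, Ooep, was 0.30 ± 0.30 for Figla and 0.21 ± 0.30 for Sohlh1, so neither cleared that error. Ooep was dim, at 111 and 76.3 signal units, and gave 0.09 at the lowest of the alternatives. The next highest marker, Nlrp5, gave 0.17 ± 0.20. Figla and Sohlh1 also had higher ratios than 13 of the 14 targets, Kit being the exception, from which they differed by -0.12 ± 0.25 and -0.21 ± 0.25. The relation of the factors to the oocyte share of the RNA was not tested.

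All 9 genes listed as other transcription regulators of oocytes passed the background mark on both arrays. Their median log2 ratio was 0.18, with 6 above 0, 3 below and 0 past 2-fold. Tbpl2, the oocyte TBP relative, gave 0.78, from dim signals of 208 and 102, but 0.34 at the lowest of the alternatives. Stat3, read by a probe at 10 spots, gave 0.45 ± 0.06 from 6106 and 3781. Another probe of Stat3, dim at 96.1 and 49.1, gave 0.73. Stat3 is not particular to oocytes, since the paper places STAT3 signalling in granulosa cells. Sall4 (0.21), Nr6a1 (0.19), Obox5 (0.18) and Obox1 (0.08) lay above 0. Sub1 (-0.18), Dynll1 (-0.23) and Foxo3 (-0.34), a brake on primordial follicle activation, lay below. Another probe of Sub1 gave 0.02. Foxo3 was dim, at 42.2 and 45.1 signal units, with an error of 0.29. Nr6a1, at 49.3 and 36.7, had an error of 0.29 too and gave -0.11 at the lowest of the alternatives.

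Partners and inhibitors of the factors were listed with 12 genes, of which Taf1 could not be matched. Of the 11 others, 6 were above 0 and 5 below, with a median of 0.08. The dimer partners of helix-loop-helix factors, Tcf3, Tcf4 and Tcf12, gave 0.18, 0.37 and 0.13. At least 2-fold higher with the agonists were Ldb2 (1.35), a cofactor of LIM proteins, from 1383 and 460 signal units, and Id4 (1.09), an inhibitor of helix-loop-helix binding, from dim signals of 101 and 40.1. The log2 ratio of Id4 was only 0.34 at the lowest of the alternatives, against 1.12 for Ldb2. The lowest was Taf12 (-0.58), a subunit of TFIID. Ldb2 and Id4 are also expressed outside oocytes.

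The 6 listed relatives in the same protein families had 1 gene above 0 and 5 below and a median of -0.32. Lhx9, a LIM homeobox gene of somatic gonad cells, gave 1.61 from 864 and 240 signal units, and its other probes gave 1.05 and 0.68. Lhx2 gave -1.11, from dim signals of 74.6 and 136, and -0.74 at the weakest of the alternatives. The probes of Lhx6 disagreed, the brightest giving -0.30 and another 1.85. Taf4, the widely expressed relative of Taf4b, gave -0.37. Pluripotency genes, listed here without Pou5f1, had 9 of 10 well above background on both arrays, Sox2 being the exception. Their median was 0.07, from Zfp42 (-0.35) to Esrrb (0.40). Zfp42 was dim, at 27.8 and 30.0 signal units, and its ratio lay within its error of 0.36. Meiotic prophase genes had 6 of 9 well above background on both arrays, with Stra8, Dmc1 and Spo11 not so, and the 6 had a median of 0.03, from Sycp2 (-0.06) to Msh4 (0.69). Msh4 was dim, at 110 and 57.7 signal units, and gave 0.12 at the lowest of the alternatives.

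Markers of the other cells of the ovary differed between the arrays in both directions. Of 10 granulosa markers, 7 were below 0, with a median of -0.47 from Fst (-0.78) to Amhr2 (0.38), and sums of scaled signals of 167 (agonists) and 193 (antagonists). Theca markers had a median of -0.10, from Cyp17a1 (-0.41) to Cyp11a1 (0.79), over 4 of 5 matched genes, Lhcgr not being well above background. Stroma markers had a median of 0.49 over 5 genes, from Lum (-0.30) to Tcf21 (0.77), with sums of 257 and 210. Endothelium markers had a median of 0.45 over 4 of 5 genes, from Kdr (-0.27) to Cdh5 (0.88). The probes of Kdr disagreed, the other, at 10 spots, giving 0.38 ± 0.06. Tek passed the background mark with the agonists only. After scaling, its agonist level was 4.10-fold above the lowest signal that passed with the antagonists. At the lowest of the alternatives the log2 ratio of Tek was 0.60. Macrophage markers had a median of 0.97 over 4 genes, from Csf1r (0.15) to Adgre1 (1.42) and with C1qa at 1.18, and sums of 11.4 and 8.99. The Adgre1 probe gave 0.87 at the lowest of the alternatives, and another probe of the gene gave 0.72. Other probes of Csf1r gave 0.04 and -0.09. Surface epithelium markers were all 5 above 0, with a median of 0.99 from Upk3b (0.62) to Krt19 (1.40) and with Krt18 at 1.03, and sums of 36.1 and 16.9. The part of these cells in the ratios of the oocyte factors was not tested.

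**Figure D5:**
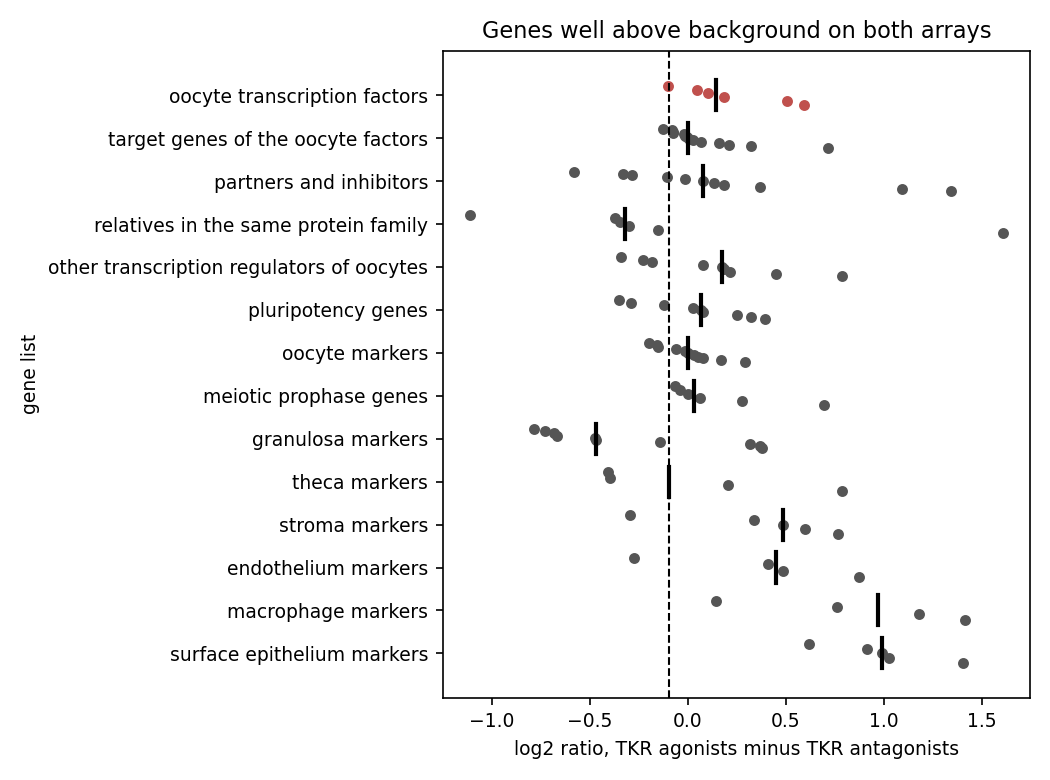
Log2 ratio of each gene well above background on both arrays, 1 point per gene, by list, with the list median as a vertical black bar and the median of all probes, -0.10, as a dashed line. The oocyte factors (red) have a median of 0.14, the oocyte markers and the targets lie around 0.00, granulosa markers at -0.47 and surface epithelium markers at 0.99. The sign of medians near 0 changes with the scaling.

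With signals taken as scaled log2 values on the 2 arrays, the named genes nearest to Nobox, the member with the highest mean signal, were Csf1r (distance 0.03, 5607 and 4285 signal units), Tmbim1 (0.04, 5712 and 4378) and Krtap10-10 (0.05, 5563 and 4201). A likeness over 2 arrays only places these probes at a similar brightness on both.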

How the data were processed

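Array groups were taken from the sample labels. The authors deposited linear spot intensity, read by Agilent Feature Extraction 10.10.1.1 after its background correction, and a summary table found to equal that intensity times a constant of each array, 1.99 with the agonists and 2.19 with the antagonists (largest relative deviation 4.97e-10), so the summary table is scaled between arrays and the spot intensity is not. Here control spots and outlier marks were left out, signals were taken as log2 minus the 75th percentile of the array, and spots of a probe were averaged. The mark of a probe as well above background needed it at more than 50% of its spots. Of 55674 probes, 27230 were named by RefSeq accession with the GRCm38.p6 gene table (names only); probes with other accessions were not used for the 7 genes. Taf1, Insl3 and Cd68 found no probe by RefSeq accession. Genes with several probes are represented by the brightest. A gene dim on 1 array has a lower bound of its fold, against the lowest signal well above background there. Such a bound holds for the main processing only and leaves out the error of the spots.

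Named are all 7 genes, the target and regulator lists, of other lists the genes at least 2-fold apart and the highest and lowest, and the 3 genes nearest the brightest member. The genes, lists and rules were chosen with earlier results of these data known. Alternatives were other scalings (none, median, probes detected on both arrays, quantile, loess with span 0.3, spike-in), the authors' summary values, normexp (offset 50) and other summaries of spots, probes and dim values. The normexp offset shrinks ratios of dim signals by construction, and can thereby set the lowest of the alternatives for dim genes. With 1 array per group, no test was made, and the number of arrays limits the precision. Python 3.11.15, numpy 2.4.6, pandas 2.3.3, R 4.3.3 and limma 3.58.1 were used, and the ratio calculation was tested on simulated data.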

Additional observations from a re-analysis of the deposited data

How the results depend on the processing

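The median log2 ratio of the 6 oocyte factor genes was 0.14. It became 0.38 without scaling and 0.39 on the spike-in controls, which shift all probes alike, the median of all probes being 0.14 and 0.15 there against -0.10. Over the alternatives the member median lay between 0.09 and 0.39. Of 76 values of single genes, 63 stayed within the error of the spot and 13 moved by more, and no gene whose ratio exceeded its error changed sign. Without scaling, the 890 higher and 233 lower probes past 2-fold became 1499 and 98. On the spike-in controls they became 1517 and 96. Under normexp they were 410 and 60. Keeping dim probes gave 3339 and 2333, restricting to probes whose mean signal reached the 75th percentile gave 231 and 31, and the lower count from the authors' summary values was 149. Dim spots limit Taf4b, whose error was 40.9% of its signal on the antagonist array. No paired analysis was possible because each group has 1 array. With 1 array per group, leaving out a replicate was not possible either.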
